A study of Mus musculus with 30 samples.

Results

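This account covers 31 genes listed as p53 target genes: Trp53, which encodes p53, and 30 others. Whether p53 acts on each of the 30 in mouse cells was not tested. The 31 genes were chosen by symbol from the gene rows of an RNA-seq count table, and all 31 symbols were found among its 57186 Ensembl identifiers. The libraries came from NIH/3T3, an immortalised mouse embryonic fibroblast line grown in DMEM with serum, and from CGR8, a mouse embryonic stem cell line kept in 2i and LIF in N2B27. Both lines were sampled at 0, 1, 2, 5 and 48 h of exposure to 0.1 µg/mL cycloheximide, with 3 libraries (A, B and C) per line and time, 30 in all. The 5 groups of NIH/3T3 and the 5 groups of CGR8 all carry the genotype label "ROSA26 SLT knock-in", so the controls share that insertion with the treated cells. The 0 h groups are those named as 0 h in their titles, although their treatment label also lists the drug. The labels say neither whether each knock-in line is a single clone nor whether the 3 libraries of a group came from separate cultures, so that p-values measure the spread between these libraries, which may be technical.

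The p53 protein is a transcription factor that binds response elements made of a pair of 10-base units and raises the transcription of genes for cell-cycle arrest, DNA repair and cell death. In unstressed cells its level is held low by Mdm2, a ubiquitin ligase that marks it for the proteasome, and by Mdm4, a partner of Mdm2 that covers its activation domain. Mdm2 is itself a p53 target, which closes a negative feedback loop, and both Mdm2 and p53 are short-lived proteins. Cycloheximide blocks the elongation step of translation, and many of these mRNAs are themselves short-lived. Embryonic stem cells are known for abundant p53, and NIH/3T3 cells for the loss of the Cdkn2a locus, whose Arf product restrains Mdm2.

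Library totals ranged from 18216993 to 30503109 counts. Levels are given in CPM, the usual count share of a library total, here scaled by TMM factors (edgeR's correction for library composition), and a change is a log2 fold change against 0 h of the same line with its standard error (SE). A gene was called higher or lower at a Benjamini-Hochberg adjusted p under 0.05 in edgeR's quasi-likelihood test over all genes of the line. The lines carried their own markers: the 6 stem cell markers reached at most 0.383 CPM in NIH/3T3 and were at 375 CPM or more in CGR8. Col1a1, a fibroblast collagen, lay between 1596 and 4760 CPM in NIH/3T3 and at no more than 0.727 CPM in CGR8, whereas the fibroblast marker Thy1 was nearly absent from NIH/3T3 (at most 0.0930 CPM) and Postn was low there (0.360 to 0.960 CPM). Cdkn2a had 0 counts in all 15 NIH/3T3 libraries, which allows a level of up to 0.164 CPM in the shallowest of them, counting error only. The summed fibroblast markers in NIH/3T3 moved with time, from 6552 to 7130 CPM at 0 h to 4243 to 4943 CPM at 5 h and 9648 to 10001 CPM at 48 h. The summed stem cell markers in CGR8 lay between 4339 and 4572 CPM at 0 h, 5931 and 7025 CPM at 5 h, and 4828 and 5261 CPM at 48 h. The part of these shifts in the p53 target results was not tested, and in bulk RNA fewer cells of a type and less RNA per cell cannot be told apart.

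A few libraries stood apart from their own groups, and several p53 target genes moved with them. NIH/3T3 1 h C and 2 h A, and CGR8 0 h B and 2 h A, had low levels of the nuclear noncoding RNAs Malat1 and Neat1. Malat1 stood at 7.58 CPM in NIH/3T3 1 h C against 27.0 and 31.4 CPM in 1 h A and B, and at 15.4 CPM in CGR8 0 h B against 52.8 and 48.7 CPM in 0 h A and C. CGR8 5 h A and B had 16.1 and 14.4 CPM of Malat1 against 40.7 CPM in 5 h C, and 85.3 and 93.2 CPM of Mdm4 against 165.9 CPM. Mdm4 was lower in each of the 4 libraries named first, with log2 ratios of -0.85 to -0.75 to the mean of the other libraries of its group. Polk, Pidd1 and Pvt1 had ratios of -1.11 to -0.63 in 3 of these 4 libraries each. In NIH/3T3 2 h A, Phlda3 and Steap3 had ratios of 0.72 and 0.65. Where leaving out these 4 libraries, or these 4 and CGR8 5 h A and B, ended a call described here, the adjusted p without them stands beside the gene.

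**Figure D1:**
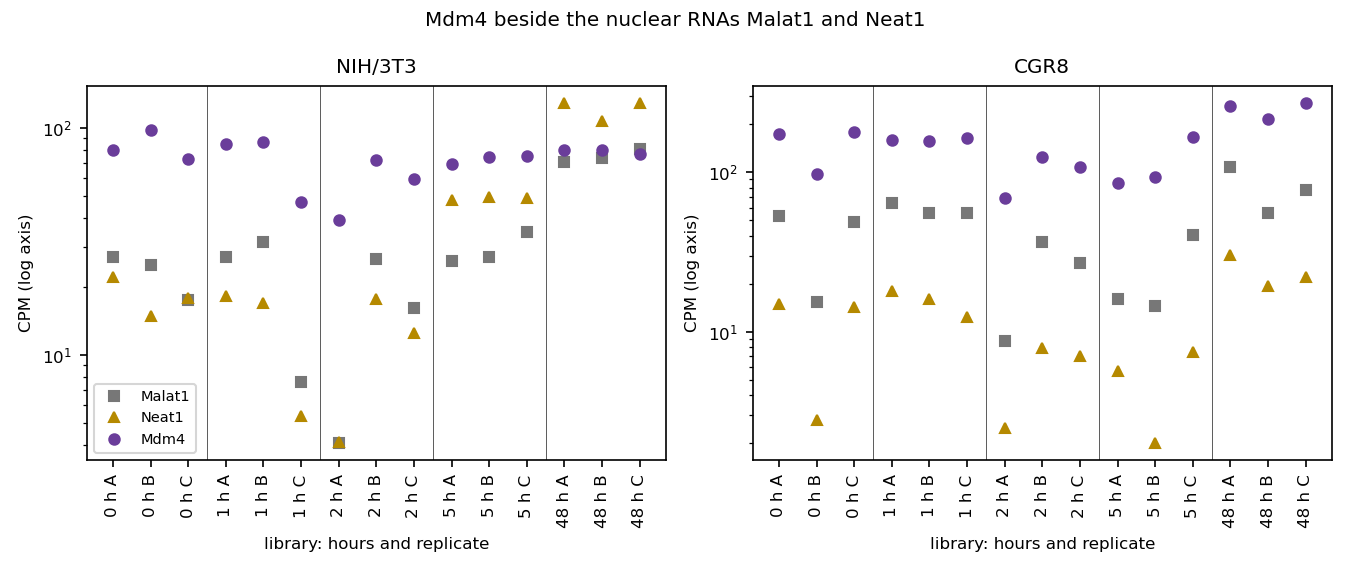
Levels in CPM (vertical axis, log scale) of Malat1 (squares), Neat1 (triangles) and Mdm4 (circles) in each of the 30 libraries (horizontal axis, by time and replicate letter), with NIH/3T3 on the left and CGR8 on the right. The 3 RNAs are low together in NIH/3T3 1 h C and 2 h A and in CGR8 0 h B and 2 h A: Mdm4 lies at 47.4 CPM in NIH/3T3 1 h C, against 85.0 and 86.3 CPM in 1 h A and B. In CGR8 5 h A and B they also lie below 5 h C, with Mdm4 at 85.3 and 93.2 against 165.9 CPM.

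In NIH/3T3 most of the p53 target genes tested were lower at 5 h and 15 were above their 0 h level at 48 h, while in CGR8 9 were lower at 5 h and 18 were higher at 48 h. At 5 h in NIH/3T3, 18 of the 30 tested were lower and 3 were higher, where 27.1% of the 13941 genes tested in that line were lower and 24.0% higher. Their median log2 fold change was -0.51, against -0.011 for all genes tested. At 48 h in NIH/3T3, 15 were higher and 4 lower, against 26.7% and 25.6% of all genes, with a median of 0.33. From 5 h to 48 h, 23 of 30 rose and 3 fell, against 34.1% and 31.4% of all genes, and the median change was 0.71. Perp, a membrane protein of cell junctions, was the gene not tested in NIH/3T3, since 13 of 15 libraries had 0 counts and the others 1.

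In CGR8, 7 of 30 were higher and 9 lower at 5 h, where 24.9% of the 15933 genes tested in that line were higher and 27.2% lower, and their median was -0.11. At 48 h 18 were higher and 4 lower, against 12.2% and 15.6% of all genes, with a median log2 fold change of 0.56 against -0.0027 for all genes. From 5 h to 48 h, 19 rose and 5 fell, against 28.9% and 28.6%, with a median of 0.63. Fas, a death receptor, was not tested in CGR8 because its counts were too low. With library totals in place of TMM factors, which moved the median of all genes by -0.10, the split at 5 h was 5 higher and 10 lower. That fit called 20.5% of all genes higher and 31.2% lower. Without the 6 libraries the split was 8 higher and 6 lower, against 20.3% and 21.5% of all genes.

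Fewer p53 target genes were called at 1 h than at the later times in both lines. At 1 h, 1 of 30 p53 target genes (Plk2) was called in NIH/3T3, where 0.732% of all genes were, and 6 were called, all higher, without the libraries that stood apart, a fit that called 14.7% of all genes. In CGR8 none of 30 was called at 1 h by edgeR or by DESeq2, where 0.27% of all genes were; 5 had an unadjusted p under 0.05, and limma's voom with sample weights called 4, and 6.55% of all genes. At 2 h in NIH/3T3, 7 were higher and 11 lower, against 16.1% and 18.9% of all genes, with a median of -0.08. That count of 18 was 9 without library 0 h A or without 2 h C (fits that called 21.6% and 21.4% of all genes), and 10 without 0 h C or without 2 h B (25.1% and 25.4%). In CGR8 at 2 h, 2 were higher and 9 lower, against 8.97% and 11.0% of all genes, and the median was -0.29. The count of 11 there was 6 without 2 h C and 18 without the 6 libraries, where 6.53% and 32.0% of all genes were called.

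**Figure D2:**
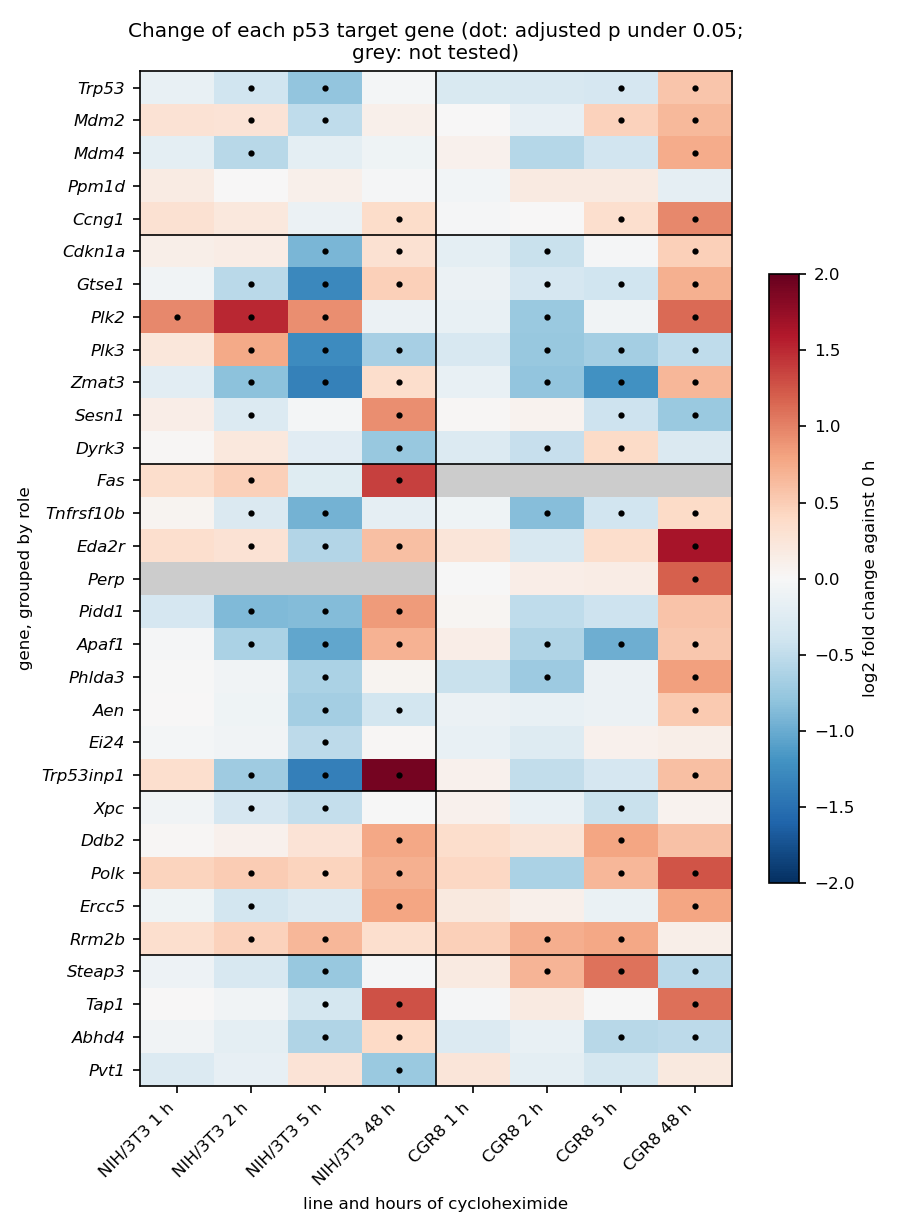
Log2 fold change against 0 h of the 31 p53 target genes (rows, grouped by role) at 1, 2, 5 and 48 h in NIH/3T3 and CGR8 (columns), with a mark on each called change. Colour runs from lower to higher. The NIH/3T3 5 h column holds 18 called decreases, and the 48 h columns hold 15 called increases in NIH/3T3 and 18 in CGR8.

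The commonest time of the lowest mean differed between the lines. In NIH/3T3, 19 of 30 p53 target genes (63.3%) had their lowest mean at 5 h, against 26.8% of all genes tested, and 17 (56.7%) had their highest mean at 48 h, against 34.8%. Both held for 12 (40.0%), against 13.8% of all genes. In CGR8 the lowest mean fell at 2 h for 14 of 30 (46.7%), against 10.1% of all genes, and the highest at 48 h for 20 (66.7%), against 27.9%. These shares describe the means of 3 libraries per time, and no test was made of them. The means include the libraries that stood apart, among them CGR8 2 h A and CGR8 5 h A and B. Shares without those libraries were not computed.

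The promoters of the p53 target genes were searched for the p53 response element, since several genes moved together. RefSeq windows on GRCm38.p6, from 250 bases before to 50 after an annotated start, were at hand for 23 of the 31. The p53 response element was searched by name as 20 bases in a pair of 10-base units on both strands, with a spacer of at most 3 bases and at most 1 mismatch, a limit chosen after the matches were seen. Cdkn1a, Ccng1, Gtse1 and Polk held such a match (17.4% of 23), against 122 of 27025 genes with a window (0.451%). An exact 10-base unit alone was found in 11 of the 23 and in 9.55% of all genes. The 4 matches are shown because these 4 genes were all called higher at 48 h in both lines, with a median log2 fold change of 0.42 in NIH/3T3 and 0.84 in CGR8. The NIH/3T3 call of Ccng1 was lost with single libraries left out (adjusted p up to 0.139). Of the genes with a window and no match, 8 of 19 were higher at 48 h in NIH/3T3 and 10 of 18 in CGR8. Since the limit was chosen after the matches were seen, these counts are descriptive, and whether a match has a part in the rise was not tested. In Cdkn1a the match lies from -51 to -32, with the start counted as 0 (stretch chr17:29090878-29090978, plus strand), and in Ccng1 from -195 to -176 (stretch chr11:40755412-40755531, minus strand). In Gtse1 it lies from -1 to 18 (chr15:85859945-85859964, plus strand), and in Polk from -231 to -211 with a spacer of 1 base (chr13:96519398-96519418, minus strand). Positions count from the annotated start whose window held the match. Cdkn1a, Gtse1 and Polk each had another window, at a different annotated start, whose best site had 5, 5 and 4 mismatches. Those windows are chr17:29093519-29093818, chr15:85859457-85859756 and chr13:96542530-96542829, in that order, and each match lies outside the other window of its gene. Which start was in use in these cells was not tested. Capitals mark the match, each sequence reads 5′ to 3′ on the strand of its gene, and a match is a description, not a site of binding.
Cdkn1a: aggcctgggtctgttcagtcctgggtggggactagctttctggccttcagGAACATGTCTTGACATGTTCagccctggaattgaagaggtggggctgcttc
Ccng1: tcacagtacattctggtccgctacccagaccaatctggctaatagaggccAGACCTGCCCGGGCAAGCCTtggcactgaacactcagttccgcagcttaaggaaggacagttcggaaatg
Gtse1: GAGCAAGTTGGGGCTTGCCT
Polk: GAACTAGCCTCAAACTTATTC

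Trp53 itself fell in both lines at 5 h, and at 48 h it was above its 0 h level in CGR8. In NIH/3T3 it stood at 240.5, 211 and 245 CPM at 0 h, 197, 161 and 169 CPM at 2 h, 136, 134 and 135 CPM at 5 h and 230.0, 225 and 223 CPM at 48 h. The 2 h and 5 h libraries all lay below those of 0 h, and the 48 h libraries lay within the 0 h range. The log2 fold change was -0.41 ± 0.091 (adjusted p = 0.00362) at 2 h, -0.78 ± 0.092 (adjusted p = 5.16e-06) at 5 h and -0.039 ± 0.091 (adjusted p = 0.737) at 48 h. In CGR8, Trp53 had 576, 664 and 554 CPM at 0 h, 487, 497 and 442 CPM at 5 h and 781, 962 and 887 CPM at 48 h. All 5 h libraries were below and all 48 h libraries above those of 0 h. The change at 5 h was -0.33 ± 0.12 (adjusted p = 0.0296), and this call was lost under other scaling factors (RLE, adjusted p = 0.0553), without library 0 h B (0.143), without 5 h A (0.0589), without 5 h C (0.0880), and without the 4 (0.0915) or the 6 (0.0509) libraries that stood apart. At 48 h it was 0.55 ± 0.12 (adjusted p = 0.00277).

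Mdm2, the ubiquitin ligase of p53, moved in opposite directions in the lines at 5 h. In NIH/3T3 it had 192, 209 and 190.1 CPM at 0 h, 239, 246 and 238 CPM at 1 h, 212, 253 and 253 CPM at 2 h, 134, 145 and 137 CPM at 5 h and 213, 212 and 212 CPM at 48 h. Every 1 h and 2 h library lay above the 0 h libraries and every 5 h library below them. The change passed the test at 2 h (0.28 ± 0.081, adjusted p = 0.0141) and at 5 h (-0.51 ± 0.081, adjusted p = 8.54e-05), but neither at 1 h (0.29 ± 0.081, adjusted p = 0.13) nor at 48 h (0.11 ± 0.081, adjusted p = 0.272). The 2 h call was lost without the filter on low counts (0.0693), without 0 h A (0.0608), without 2 h B (0.0577) and without 2 h C (0.0511). The 1 h change was called by DESeq2, by voom and without the libraries that stood apart. In CGR8, Mdm2 had 88.8, 79.2 and 88.4 CPM at 0 h, 119, 107 and 127 CPM at 5 h and 139, 131 and 131 CPM at 48 h. Both later groups lay wholly above 0 h, by 0.46 ± 0.09 (adjusted p = 0.000529) and 0.65 ± 0.09 (adjusted p = 7.00e-05) on the log2 scale.

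Among the other regulators of p53, Ccng1 rose in both lines, Mdm4 rose in CGR8, and Ppm1d passed no test against 0 h. Ccng1 encodes cyclin G1, which brings the phosphatase PP2A to Mdm2. In CGR8 it rose from 149, 151 and 139 CPM at 0 h to 284, 273 and 297 CPM at 48 h, with no overlap, by 0.96 ± 0.12 (adjusted p = 2.29e-05), and in NIH/3T3 from 641, 760.5 and 621 to 845, 888 and 879 CPM, by 0.37 ± 0.14 (adjusted p = 0.038). The NIH/3T3 call was lost without 0 h A, without 0 h C and without any 1 of the 48 h libraries (up to 0.139). Mdm4 in CGR8 went from 173, 97.1 and 178 CPM at 0 h to 260.1, 216 and 271 CPM at 48 h, a change of 0.74 ± 0.26 (adjusted p = 0.0425). Its 48 h libraries all lay above those of 0 h, of which 0 h B was the low one, and the call was lost in 8 of 16 alternatives (adjusted p up to 0.158), among them without the 4 libraries that stood apart (0.0774). In NIH/3T3 the 2 h change of Mdm4, -0.55 ± 0.21 (adjusted p = 0.0471), was likewise lost in 8 of 16 alternatives (up to 0.191), among them without 2 h A. Ppm1d, the phosphatase that acts on p53 and on its kinases, stayed between 28.2 and 35.2 CPM in all 15 NIH/3T3 libraries and passed no test there. In CGR8 it fell from 5 h to 48 h, from 33.9, 34.2 and 32.5 to 25.5, 26.3 and 25.9 CPM (-0.37 ± 0.10, adjusted p = 0.00426, 0.0912 without the filter on low counts).

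Cdkn1a, which encodes the cyclin-dependent kinase inhibitor p21, was at its lowest at 5 h in NIH/3T3 and at 2 h in CGR8. In NIH/3T3 it had 203, 185 and 209 CPM at 0 h, 239, 204 and 219 CPM at 2 h, 103, 107 and 108 CPM at 5 h and 244, 242 and 255 CPM at 48 h. The 5 h libraries all lay below those of 0 h and the 48 h libraries all above them. The changes were -0.91 ± 0.079 (adjusted p = 3.17e-07) at 5 h and 0.31 ± 0.078 (adjusted p = 0.00326) at 48 h. In CGR8 it had 62.6, 73.2 and 59.1 CPM at 0 h, 50.6, 49.5 and 43.7 CPM at 2 h, 69.7, 63.8 and 58.0 CPM at 5 h and 98.4, 87.1 and 86.5 CPM at 48 h. The 2 h libraries lay below 0 h, those of 5 h overlapped it and those of 48 h lay above it. The fall at 2 h (-0.44 ± 0.11, adjusted p = 0.0121) was lost when the 0 h and 2 h groups were fitted alone (0.0741) and without 2 h C (0.0674), and the rise at 48 h was 0.48 ± 0.11 (adjusted p = 0.00342). Exons of Cdkn1a overlap an unnamed gene on the other strand, and whether the authors' counting used strand is not given in the sources used here.

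Zmat3 and Gtse1 fell and then rose in both lines. Zmat3 encodes a zinc-finger protein that binds RNA and regulates splicing. In NIH/3T3 it went from 102, 93.1 and 93.7 CPM at 0 h through 59.7, 51.8 and 51.8 CPM at 2 h and 33.1, 39.2 and 40.7 CPM at 5 h to 120.4, 123 and 124 CPM at 48 h. In CGR8 the same times gave 112, 101 and 112, 67.3, 68.9 and 52.2, 41.9, 48.0 and 51.0 and 173, 160.5 and 181 CPM. In both lines the 2 h and 5 h libraries lay wholly below 0 h and the 48 h libraries wholly above it. The fall at 2 h was -0.82 ± 0.11 (adjusted p = 9.98e-05) in NIH/3T3 and -0.79 ± 0.12 (0.000406) in CGR8. The log2 fold changes at 5 h and 48 h were -1.35 ± 0.12 and 0.34 ± 0.11 in NIH/3T3 (adjusted p = 2.87e-07 and 0.0171) and -1.21 ± 0.12 and 0.66 ± 0.11 in CGR8 (adjusted p = 1.51e-06 and 0.000482). The 48 h call in NIH/3T3 was lost without 0 h B or without 0 h C (up to 0.0588).

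Gtse1 encodes a microtubule-associated protein of the S and G2 phases that binds p53. In NIH/3T3 it stood at 189, 166 and 192 CPM at 0 h, 73.2, 75.2 and 75.7 CPM at 5 h and 254, 256 and 251 CPM at 48 h. In CGR8 it stood at 238, 214 and 234 CPM, 178, 172 and 171 CPM and 373, 380.3 and 367 CPM at the same times. In both lines the 3 groups did not overlap. The log2 fold change at 5 h was -1.29 ± 0.10 (adjusted p = 1.39e-07) in NIH/3T3 and -0.40 ± 0.10 (adjusted p = 0.00275) in CGR8, and at 48 h 0.48 ± 0.10 and 0.71 ± 0.10 (adjusted p = 0.000771 and 5.66e-05).

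Plk2 and Plk3, stress-responsive polo-like kinases, rose in NIH/3T3 and fell in CGR8 at 2 h. Plk2 in NIH/3T3 had 300.4, 289 and 313 CPM at 0 h, 616, 650.0 and 489.5 CPM at 1 h, 790.4, 915 and 870.1 CPM at 2 h, 583, 554 and 579 CPM at 5 h and 272, 278 and 284 CPM at 48 h. The libraries of 1, 2 and 5 h all lay above 0 h, with the highest levels at 2 h, and those of 48 h lay below it. The log2 fold changes were 0.96 ± 0.10 at 1 h (adjusted p = 2.13e-05), 1.51 ± 0.10 at 2 h (1.81e-08), 0.93 ± 0.10 at 5 h (1.87e-06) and -0.11 ± 0.10 at 48 h (adjusted p = 0.348, not called). In CGR8, Plk2 had 20.8, 20.1 and 21.1 CPM at 0 h, 10.1, 13.5 and 13.4 CPM at 2 h, 20.4, 19.04 and 19.8 CPM at 5 h and 45.7, 47.8 and 42.9 CPM at 48 h. The low point was at 2 h (-0.74 ± 0.12, adjusted p = 0.000717) and the high point at 48 h (1.14 ± 0.11, adjusted p = 3.91e-06), both without overlap with 0 h.

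Plk3 in NIH/3T3 rose from 31.4, 25.8 and 30.5 CPM at 0 h to 50.2, 47.0 and 51.5 CPM at 2 h and then stood at 13.3, 11.6 and 11.7 CPM at 5 h and 17.4, 19.99 and 18.03 CPM at 48 h. In CGR8 it went from 12.8, 12.2 and 11.6 CPM at 0 h to 7.14, 7.32 and 7.10 CPM at 2 h, 8.22, 7.31 and 7.39 CPM at 5 h and 9.69, 8.58 and 7.53 CPM at 48 h. After the rise at 2 h in NIH/3T3 the later groups of both lines lay below 0 h without overlap. The changes at 2, 5 and 48 h were 0.76 ± 0.15, -1.26 ± 0.16 and -0.66 ± 0.15 in NIH/3T3 (adjusted p = 0.00141, 8.99e-06 and 0.00176) and -0.76 ± 0.12, -0.67 ± 0.12 and -0.50 ± 0.12 in CGR8 (adjusted p = 0.000684, 0.000245 and 0.00473). Plk3 exons overlap those of Tctex1d4, so part of its counts could belong to that gene.

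Unlike Zmat3, Sesn1 fell and then rose in NIH/3T3 only, and Dyrk3 did not end above its 0 h level in either line. Sesn1 encodes sestrin 1, which restrains the growth kinase mTORC1. In NIH/3T3 it was called lower at 2 h, the time of its lowest mean, a call lost in several alternatives (adjusted p up to 0.243). In CGR8 it was called lower at 5 h, a call lost without the 6 libraries (0.0586). At 48 h it had risen in NIH/3T3, from 19.1, 20.4 and 18.4 to 38.4, 35.5 and 36.2 CPM (0.93 ± 0.10, adjusted p = 1.44e-06), and fallen in CGR8, from 16.6, 16.8 and 16.8 to 10.8, 9.93 and 9.18 CPM (-0.75 ± 0.12, adjusted p = 0.000243), without overlap in either line. Dyrk3, a kinase that dissolves stress granules, fell in NIH/3T3 at 48 h, from 37.7, 41.6 and 43.0 to 24.6, 22.8 and 25.2 CPM (-0.75 ± 0.10, adjusted p = 2.02e-05). In CGR8 it fell at 2 h (-0.46 ± 0.11, adjusted p = 0.00927), was higher at 5 h (0.38 ± 0.11, adjusted p = 0.00784) and did not pass the test at 48 h (-0.28 ± 0.11, adjusted p = 0.0579).

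**Figure D3:**
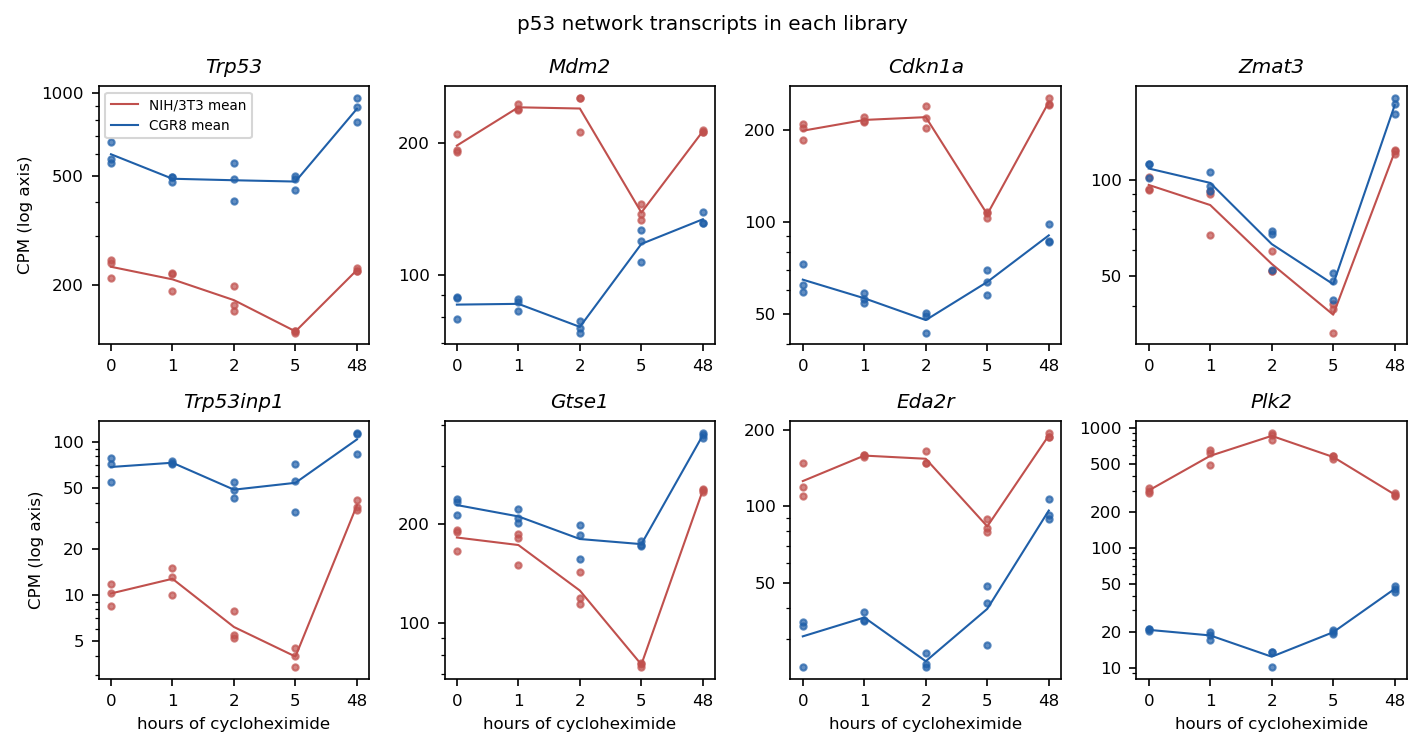
Levels in CPM (vertical axis, log scale) of Trp53, Mdm2, Cdkn1a, Zmat3, Trp53inp1, Gtse1, Eda2r and Plk2 at 0, 1, 2, 5 and 48 h of cycloheximide (horizontal axis, evenly spaced times), with a point per library and a line through the means of NIH/3T3 and of CGR8. Plk2 rises to 790 to 915 CPM at 2 h in NIH/3T3 while it falls to 10.1 to 13.5 CPM in CGR8, and Zmat3 dips and recovers in both lines.

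Of the genes of cell death and survival signalling, a group assembled after seeing the data, 8 of the 9 tested were lower in NIH/3T3 at 5 h, where 27.1% of all genes were, and all 9 rose there from 5 h to 48 h, where 34.1% did. In CGR8, 7 of 9 were higher at 48 h, against 12.2% of all genes. Trp53inp1, a nuclear and autophagosomal protein induced by stress, had the largest change of the 30 from 5 h to 48 h in NIH/3T3. It had 10.3, 11.8 and 8.42 CPM at 0 h, 5.18, 7.77 and 5.48 CPM at 2 h, 3.996, 4.47 and 3.35 CPM at 5 h and 36.0, 41.7 and 37.4 CPM at 48 h. The 2 h and 5 h libraries lay below 0 h and those of 48 h were all more than 3 times the highest 0 h library. Its changes were -0.71 ± 0.18 at 2 h (adjusted p = 0.00711), -1.36 ± 0.19 at 5 h (2.39e-05), 1.92 ± 0.17 at 48 h (1.76e-07) and 3.28 ± 0.18 from 5 h to 48 h (1.03e-09). In CGR8 it went from 78.4, 54.7 and 71.7 CPM to 115, 83.6 and 112 CPM at 48 h (0.60 ± 0.21, adjusted p = 0.0393), a call lost in 6 of 16 alternatives (up to 0.143), among them without 0 h B and without the 4 libraries (0.118).

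Among the receptors of this group, Eda2r rose in both lines by 48 h, Fas rose in NIH/3T3, and Tnfrsf10b fell in both at 5 h. Eda2r, the receptor for ectodysplasin A2, went in CGR8 from 35.2, 23.4 and 33.9 CPM at 0 h to 89.5, 92.0 and 107 CPM at 48 h and in NIH/3T3 from 119.6, 148 and 109 CPM through 79.3, 88.9 and 81.9 CPM at 5 h to 187, 195 and 188 CPM at 48 h. The 48 h groups lay above 0 h in both lines, by 1.64 ± 0.18 (adjusted p = 6.64e-06) in CGR8 and 0.59 ± 0.10 (adjusted p = 0.000104) in NIH/3T3. Fas rose in NIH/3T3 from 3.90, 4.36 and 4.37 to 11.9, 10.4 and 10.4 CPM at 48 h (1.36 ± 0.13, adjusted p = 4.36e-07), while in CGR8 it stayed at or below 0.44 CPM in all 15 libraries. Tnfrsf10b, a receptor for the death ligand TRAIL, had 59.8, 63.4 and 64.2 CPM at 0 h and 31.8, 31.7 and 33.8 CPM at 5 h in NIH/3T3 (-0.95 ± 0.084, adjusted p = 3.67e-07). In CGR8 it had 17.9, 17.8 and 17.2 CPM at 0 h, 10.5, 9.76 and 9.11 CPM at 2 h and 13.1, 12.7 and 14.6 CPM at 5 h (-0.85 ± 0.11 and -0.39 ± 0.10, adjusted p = 0.000111 and 0.00558). The 5 h call in CGR8 was lost without the 6 libraries (0.161).

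Apaf1 and Pidd1 form the scaffolds on which caspases are activated, the apoptosome and the PIDDosome. Apaf1 in NIH/3T3 went from 51.0, 50.9 and 43.4 CPM to 22.4, 23.4 and 24.6 CPM at 5 h and 77.5, 79.0 and 78.7 CPM at 48 h, and in CGR8 from 28.8, 22.6 and 28.9 CPM to 9.77, 13.4 and 17.5 and 46.2, 35.1 and 35.7 CPM. In each line the 5 h libraries lay below and the 48 h libraries above those of 0 h. The changes at 5 h were -1.04 ± 0.17 and -0.98 ± 0.19 (adjusted p = 0.000119 and 0.000527), and those at 48 h were 0.70 ± 0.17 and 0.54 ± 0.18 (adjusted p = 0.00246 and 0.0378); the last was lost in 8 of 16 alternatives (up to 0.166), among them without the 4 libraries (0.102). Pidd1 in NIH/3T3 had 16.9, 15.7 and 16.0 CPM at 0 h, 7.25, 9.85 and 9.30 CPM at 2 h, 9.06, 8.80 and 8.74 CPM at 5 h and 30.9, 26.8 and 30.3 CPM at 48 h, with changes of -0.88 ± 0.17, -0.87 ± 0.17 and 0.85 ± 0.16 (adjusted p = 0.00141, 0.000503 and 0.00037). In CGR8 its 48 h change of 0.57 ± 0.23 did not pass (adjusted p = 0.0831), although all 48 h libraries (43.1, 40.9 and 40.6 CPM) lay above those of 0 h (32.1, 19.99 and 32.0 CPM).

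Perp and Phlda3 rose in CGR8. Perp went from 3.85, 5.37 and 5.11 CPM at 0 h to 11.1, 11.3 and 10.3 CPM at 48 h, without overlap (1.20 ± 0.16, adjusted p = 4.53e-05). Phlda3, which competes with the survival kinase Akt for membrane lipids, rose from 29.9, 37.4 and 26.2 to 56.4, 55.8 and 52.98 CPM (0.82 ± 0.17, adjusted p = 0.00171); in NIH/3T3 it fell at 5 h (-0.63 ± 0.17, adjusted p = 0.00481) and at 48 h had a change of 0.058 ± 0.16 (adjusted p = 0.783). Aen, a nuclease that promotes apoptosis, differed in direction at 48 h: it was lower in NIH/3T3 (-0.37 ± 0.11, adjusted p = 0.0105, 0.0531 without 0 h C) and higher in CGR8 (0.52 ± 0.10, adjusted p = 0.00106). Ei24, an endoplasmic reticulum protein of autophagy, fell in NIH/3T3 at 5 h (-0.52 ± 0.10, adjusted p = 0.000361) and passed no test against 0 h in CGR8. Exons of Ei24 overlap those of Gm26787 on the other strand.

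Of the 5 genes of DNA repair and nucleotide supply, 2 were higher and 1 lower at 5 h in NIH/3T3, and 3 were higher and 1 lower in CGR8. The shares of all genes were 24.0% higher and 27.1% lower in NIH/3T3 and 24.9% and 27.2% in CGR8, and this group too was assembled after seeing the data. Rrm2b, the p53-inducible subunit of ribonucleotide reductase, and Polk, a translesion DNA polymerase, were called higher at 5 h in both lines. Rrm2b went from 10.0, 13.2 and 8.71 to 15.9, 18.03 and 16.5 CPM in NIH/3T3 and from 4.75, 3.96 and 3.94 to 6.17, 7.36 and 8.13 CPM in CGR8, without overlap, by 0.66 ± 0.14 and 0.77 ± 0.19 (adjusted p = 0.00123 and 0.00292). Polk went from 31.7, 39.6 and 31.8 CPM at 0 h to 44.7, 48.9 and 46.2 CPM at 5 h and 56.9, 56.8 and 55.0 CPM at 48 h in NIH/3T3, and from 11.0, 6.62 and 10.5 to 13.1, 13.0 and 18.3 and 25.9, 21.1 and 20.5 CPM in CGR8. All 5 h and 48 h libraries lay above those of 0 h in both lines, and the 48 h libraries lay above those of 5 h. The changes were 0.44 ± 0.17 and 0.71 ± 0.17 in NIH/3T3 (adjusted p = 0.0404 and 0.00236) and 0.66 ± 0.21 and 1.26 ± 0.21 in CGR8 (adjusted p = 0.0165 and 0.000354). The 5 h calls of Polk were lost with library totals as scaling and without single libraries, with adjusted p up to 0.129 in NIH/3T3 and 0.0873 in CGR8. At 2 h Polk (0.50 ± 0.17, adjusted p = 0.0323) and Rrm2b (0.46 ± 0.15, 0.0222) were called higher in NIH/3T3 and Rrm2b in CGR8 (0.72 ± 0.19, adjusted p = 0.0156), calls that were lost in 5, 5 and 3 of 16 alternatives, single libraries left out among them.

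Xpc, Ddb2 and Ercc5 act in nucleotide excision repair. Xpc, which recognises the distorted DNA strand, fell at 5 h in NIH/3T3 (-0.48 ± 0.13, adjusted p = 0.00436) and in CGR8 (-0.45 ± 0.11, adjusted p = 0.00354), from 19.3, 16.7 and 19.6 to 13.2, 12.9 and 13.8 CPM and from 24.6, 23.3 and 24.6 to 18.6, 16.7 and 17.97 CPM. Ddb2, which recognises ultraviolet photoproducts, was higher in CGR8 at 5 h, at 7.73, 5.99 and 8.33 against 4.69, 3.07 and 5.07 CPM (0.78 ± 0.23, adjusted p = 0.0091), and in NIH/3T3 at 48 h, at 5.71, 5.64 and 5.42 against 3.56, 3.25 and 3.09 CPM (0.77 ± 0.15, adjusted p = 0.000392). Ercc5, the endonuclease that cuts 3′ of the damage, rose at 48 h from 39.8, 40.8 and 40.5 to 70.8, 71.3 and 68.0 CPM in NIH/3T3 and from 21.1, 14.7 and 23.2 to 34.2, 36.0 and 31.6 CPM in CGR8 (0.80 ± 0.13 and 0.79 ± 0.19, adjusted p = 0.000124 and 0.00498). Exons of Ddb2 overlap those of Acp2, and exons of Rrm2b those of Gm49085, so that reads could be shared.

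The remaining genes, Steap3, Tap1, Abhd4 and Pvt1, moved in different ways. Steap3 reduces iron in endosomes. In NIH/3T3 it had 313, 310.4 and 332 CPM at 0 h and 191, 183 and 190.3 CPM at 5 h (-0.76 ± 0.13, adjusted p = 0.000149). In CGR8 it had 6.81, 7.55 and 5.78 CPM at 0 h, 10.3, 12.5 and 9.34 CPM at 2 h, 14.4, 16.4 and 12.3 CPM at 5 h and 4.92, 4.14 and 4.86 CPM at 48 h. The 5 h libraries lay below 0 h in NIH/3T3 and above it in CGR8. The changes in CGR8 were 0.67 ± 0.15 at 2 h (adjusted p = 0.00634), 1.09 ± 0.15 at 5 h (2.46e-05) and -0.53 ± 0.15 at 48 h (0.0162, lost without the 4 libraries at 0.0711, without 0 h B at 0.0821 and without 48 h B at 0.0760).

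Tap1, a subunit of the peptide transporter that loads MHC class I molecules, rose at 48 h in NIH/3T3 from 10.7, 10.2 and 10.7 to 24.6, 23.4 and 28.3 CPM (1.27 ± 0.13, adjusted p = 1.12e-06) and in CGR8 from 0.899, 0.606 and 0.586 to 2.06, 1.42 and 1.07 CPM (1.10 ± 0.30, adjusted p = 0.0112, 0.0697 without 48 h A). Its exons overlap those of Psmb9. Abhd4, a lipid hydrolase, fell at 5 h in both lines and parted at 48 h, when it was higher in NIH/3T3, at 89.3, 86.5 and 87.2 against 65.7, 66.3 and 67.7 CPM (0.40 ± 0.12, adjusted p = 0.0101), and lower in CGR8, at 27.6, 22.1 and 19.6 against 30.2, 37.3 and 32.3 CPM (-0.52 ± 0.14, adjusted p = 0.0107). The call in CGR8 was lost without 0 h B (0.0622) and without 48 h C (0.0676). Pvt1, a long noncoding RNA, fell in NIH/3T3 at 48 h from 30.8, 30.7 and 33.2 to 19.9, 17.7 and 19.1 CPM (-0.74 ± 0.22, adjusted p = 0.0101) and passed no test in CGR8, where 0 h B and 5 h B were low. Exons of Pvt1 overlap those of Gm27718, Gm27913 and Gm27957 on the same strand and of H2afy3 on the other strand, so that reads could be shared.

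Between 5 h and 48 h, Trp53inp1 (given above) rose most in NIH/3T3, followed by Gtse1 (1.77 ± 0.10, adjusted p = 1.34e-09), and the largest of its 3 falls were those of Plk2 (-1.04 ± 0.10, 1.72e-07) and Pvt1 (-1.01 ± 0.22, 0.000752). In CGR8 the largest rises were those of Zmat3 (1.87 ± 0.12, adjusted p = 2.11e-08) and Apaf1 (1.52 ± 0.19, 8.57e-06), and the largest of its 5 falls were those of Steap3 (-1.63 ± 0.15, 5.28e-07) and Rrm2b (-0.66 ± 0.19, 0.00686). Over the same interval Trp53 rose by 0.74 ± 0.092 in NIH/3T3 (2.88e-06) and 0.88 ± 0.12 in CGR8 (1.79e-05), and Cdkn1a by 1.22 ± 0.079 (3.88e-09) and 0.51 ± 0.11 (0.000881). Mdm2 rose in NIH/3T3 (0.62 ± 0.081, adjusted p = 5.75e-06), and its change in CGR8 did not pass (0.19 ± 0.089, 0.0844).

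The lines shared part of these changes. Of the 29 genes tested in both, 8 were lower in both at 5 h (Abhd4, Apaf1, Gtse1, Plk3, Tnfrsf10b, Trp53, Xpc and Zmat3), which is 27.6% of the 29, 44.4% of the 18 lower in NIH/3T3 and 88.9% of the 9 lower in CGR8. Of the 12369 genes tested in both lines, 18.4% were lower in both at 5 h, which is 64.4% and 63.3% of those lower in each line. At 48 h, 10 were higher in both (Apaf1, Ccng1, Cdkn1a, Eda2r, Ercc5, Gtse1, Polk, Tap1, Trp53inp1 and Zmat3), which is 34.5% of the 29, 71.4% of those of the 29 higher in NIH/3T3 and 58.8% of those higher in CGR8. Of all genes tested in both, 5.42% were higher in both at 48 h, which is 20.6% and 46.3% of those higher in each line. The pairs called in opposite directions were Plk2 and Plk3 at 2 h, Mdm2 and Steap3 at 5 h, and Abhd4, Aen and Sesn1 at 48 h.

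The response itself was tested between the lines as an interaction, CGR8 minus NIH/3T3, in a model of all 30 libraries with 17549 genes. At 5 h the response of the p53 target genes was more positive in CGR8 for 13 of 31 and less positive for 1 (Plk2), against 8.18% and 5.09% of all genes tested. The median difference was 0.54 for the 31 genes and 0.13 for all genes. With library totals as scaling, which moved the median of all genes by -0.19, the split was 9 and 2, against 3.77% and 8.2% of all genes. With RLE factors it was 10 and 1, against 5.38% and 6.33%. Without CGR8 5 h A the count fell from 14 to 9, split 8 and 1, against 2.68% and 6.71%. In each of these alternatives more of all genes were less positive in CGR8 than more positive, the reverse of the fit with TMM factors and all libraries. Of the 20 cell-cycle genes that p53 lowers, described below, 9 were more positive in CGR8 and 0 less positive, with a median of 0.43. Of the 30 further p53 targets, 8 were more positive and 3 less positive, with a median of 0.015. Steap3 differed by 1.94 ± 0.19 (adjusted p = 8.77e-08), Trp53inp1 by 1.10 ± 0.30 (0.0126), Mdm2 by 1.05 ± 0.11 (3.59e-07) and Cdkn1a by 0.97 ± 0.13 (7.64e-06). Trp53 differed by 0.54 ± 0.15 (adjusted p = 0.0174), and this was lost under RLE factors (0.0560), library totals (0.0964), without the 6 libraries (0.0733), and without CGR8 5 h A (0.219), 5 h B (0.204), 0 h A (0.0502) or 0 h C (0.0601). The Trp53inp1 difference was lost with library totals (0.0726) and without CGR8 5 h B (0.0626).

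At 1 h the response of 1 of 31 genes differed (Plk2, -1.09 ± 0.15, adjusted p = 0.000199), where 0.16% of all genes differed. At 2 h, 1 gene was more positive in CGR8 and 5 were less positive, against 0.866% and 1.16% of all genes. Steap3 differed by 1.05 ± 0.19 (adjusted p = 0.00131, 0.0538 with only the groups compared in the fit), Plk2 by -2.20 ± 0.15 (9.40e-11), Plk3 by -1.47 ± 0.20 (2.06e-05) and Cdkn1a by -0.53 ± 0.13 (0.0226). The Cdkn1a difference was lost in 7 of 22 alternatives, with adjusted p up to 0.201, among them without the 4 libraries (0.0750) and without CGR8 0 h B, CGR8 2 h C, NIH/3T3 0 h B or NIH/3T3 2 h A. The opposite moves of both polo-like kinases at 2 h thus passed the test of the difference itself.

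At 48 h, 9 of 31 were more positive in CGR8 and 3 less positive, against 9.78% and 12.1% of all genes, with a median difference of 0.14. Plk2 (1.23 ± 0.15, adjusted p = 7.09e-07), Eda2r (1.03 ± 0.20, 0.000328), Trp53 (0.57 ± 0.15, 0.00653) and Mdm2 (0.52 ± 0.11, 0.00124) were more positive in CGR8. Sesn1 (-1.69 ± 0.15, adjusted p = 5.06e-09) and Trp53inp1 (-1.34 ± 0.28, 0.000688) were less positive there. Zmat3 and Gtse1, which rose in both lines, had line differences at 48 h of 0.30 ± 0.16 and 0.21 ± 0.13 (adjusted p = 0.195 and 0.294), and Cdkn1a had 0.15 ± 0.13 (adjusted p = 0.455).

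**Figure D4:**
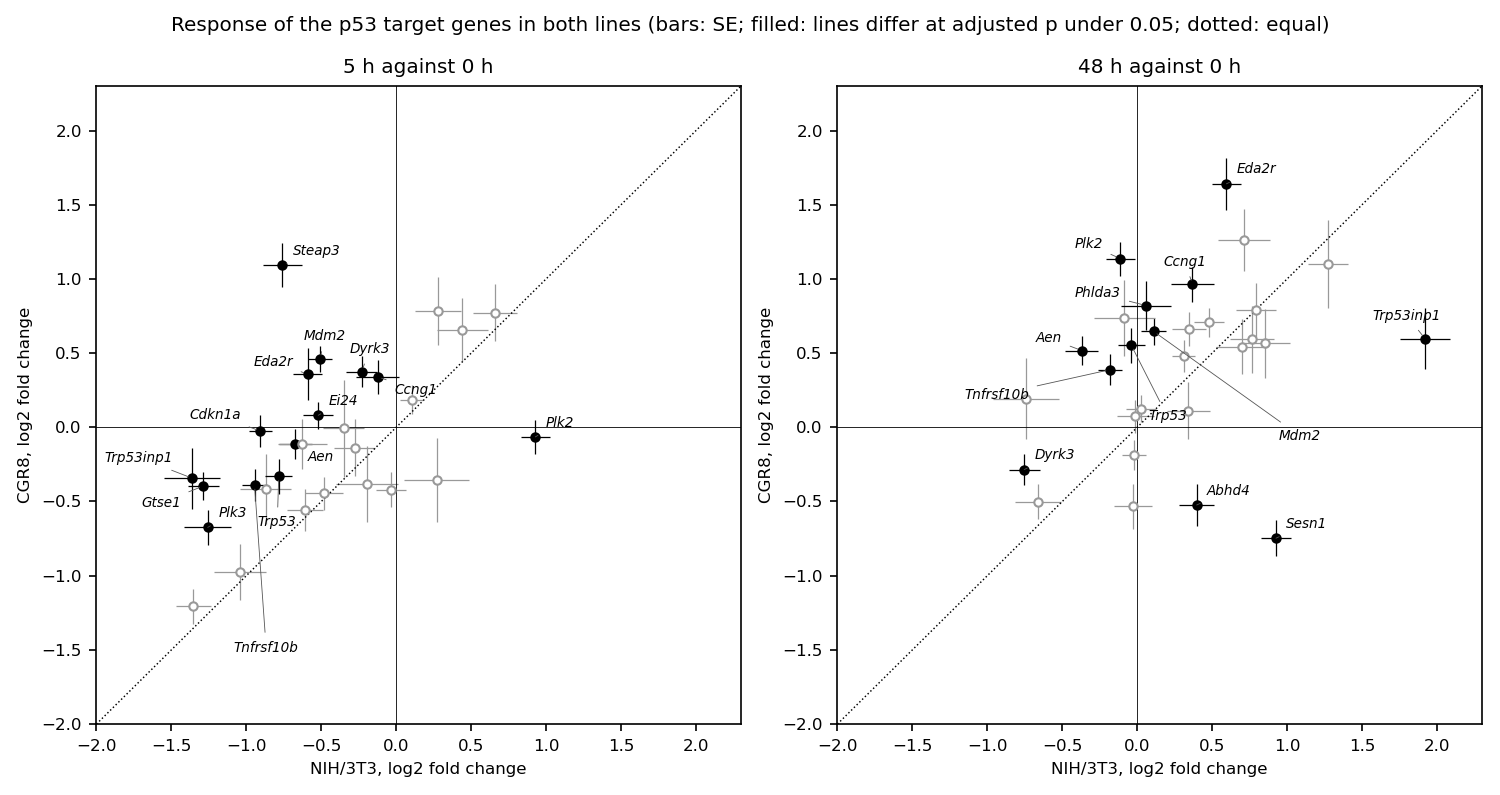
Log2 fold change in CGR8 (vertical axis) against that in NIH/3T3 (horizontal axis) of the p53 target genes tested in both lines, at 5 h (left) and 48 h (right). Bars are SE, filled and named points are genes whose response differed between the lines at an adjusted p under 0.05, and the dotted line marks equal responses. At 5 h the filled points other than Plk2 lie above that line, and Steap3 lies at 1.09 in CGR8 and -0.76 in NIH/3T3.

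Before treatment, most of the 31 p53 target genes were at lower levels in CGR8 than in NIH/3T3, while Trp53 mRNA was higher. Levels here are CPM scaled over all 30 libraries. In untreated CGR8, 8 of 31 were higher and 20 lower than in untreated NIH/3T3, against 42.8% and 36.3% of all genes tested. The median log2 difference was -1.05, also with Perp at its lower bound, against 0.15 for all genes. The 30 further p53 targets described below leaned the other way. Of these, 17 were higher and 8 lower in untreated CGR8, with a median of 0.85. Trp53 had 565, 657 and 542 CPM in CGR8 and 244, 212 and 251 CPM in NIH/3T3 (1.32 ± 0.11, adjusted p = 7.71e-12). Cdkn1a had 61.4, 72.5 and 57.8 CPM in CGR8 and 206, 186 and 214 CPM in NIH/3T3 (-1.66 ± 0.093, adjusted p = 1.12e-15). Mdm2 had 87.2, 78.4 and 86.4 and 195, 209.9 and 195 CPM (-1.25 ± 0.082, adjusted p = 3.80e-14). The groups did not overlap for any of the 3 genes.

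In untreated CGR8, Steap3 and Fas were lower than in untreated NIH/3T3 by the widest margins, and Perp and Trp53inp1 were higher by the widest. Steap3 had 6.68, 7.47 and 5.65 CPM in CGR8 against 317, 312 and 340.0 CPM in NIH/3T3 (-5.61 ± 0.16, adjusted p = 1.69e-22), and Fas had 0.284, 0 and 0.123 against 3.96, 4.37 and 4.48 CPM (-4.82 ± 0.44, adjusted p = 6.17e-11). Trp53inp1 was higher in CGR8, at 76.9, 54.2 and 70.1 against 10.5, 11.8 and 8.62 CPM (2.71 ± 0.21, adjusted p = 1.46e-12). Perp had 0 counts in the 3 untreated NIH/3T3 libraries and 3.78, 5.31 and 5.00 CPM in CGR8, at least 37.1-fold higher when 3 counts per library are taken as the limit. Cdkn2a, which is no p53 target but encodes the Arf restraint on Mdm2, was at least 137-fold higher in untreated CGR8 by the same limit, at 17.4 CPM.

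Per kilobase of exon, the order of the genes differed between the lines. In untreated NIH/3T3 the highest were Ccng1 (195 ± 19.8 CPM per kb, SD, n = 3), Phlda3 (162 ± 10.3), Plk2 (67.9 ± 3.48), Gtse1 (67.4 ± 5.86) and Trp53 (58.2 ± 5.24). Ccng1, Phlda3 and Plk2 did not overlap with each other, whereas Gtse1 overlapped with both of its neighbours. In untreated CGR8 the highest was Trp53 (145 ± 15.1 CPM per kb), followed by Gtse1 (82.0 ± 4.29), Ccng1 (40.9 ± 1.98), Dyrk3 (28.3 ± 2.40) and Aen (25.4 ± 1.05). No neighbours among these 5 overlapped. Cdkn1a had rank 6 in NIH/3T3 (56.9 ± 4.08) and rank 8 in CGR8 (17.98 ± 2.15).

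**Figure D5:**
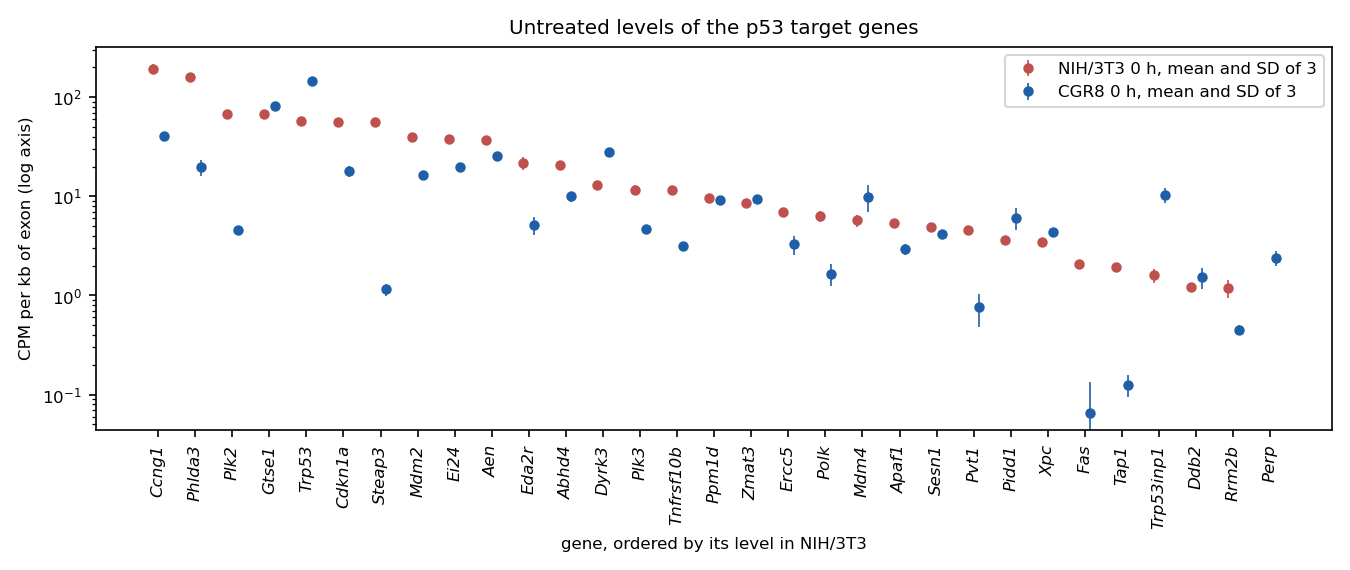
Untreated level per kilobase of exon in CPM per kb (vertical axis, log scale) of the 31 p53 target genes (horizontal axis, ordered by their level in NIH/3T3), as mean and SD of 3 libraries in each line. Perp has no NIH/3T3 point because it was at 0 there, and the SD of Fas in CGR8 runs off the axis. Trp53 stands higher in CGR8 (145 ± 15.1 CPM per kb against 58.2 ± 5.24 in NIH/3T3) and Steap3 far lower (1.15 ± 0.160 against 56.5 ± 2.63).

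Other genes of the pathway, listed apart from the 31, were read from the same fits. Of 30 further p53 targets, 22 were tested in NIH/3T3: 3 were higher and 11 lower at 5 h, and 7 higher and 5 lower at 48 h, with medians of -0.30 and -0.06. In CGR8 all 30 were tested, with 5 higher and 13 lower at 5 h and 10 higher and 9 lower at 48 h (medians -0.33 and 0.10). The shares of all genes higher and lower, against which these and the next lists are to be read, were 24.0% and 27.1% at 5 h and 26.7% and 25.6% at 48 h in NIH/3T3, and 24.9% and 27.2% at 5 h and 12.2% and 15.6% at 48 h in CGR8. Triap1, an apoptosis inhibitor, and Gadd45a, a stress sensor, were higher at 5 h in both lines: Triap1 by 0.84 ± 0.15 and 0.95 ± 0.13, and Gadd45a by 0.76 ± 0.15 and 0.78 ± 0.13 in NIH/3T3 and CGR8. Sesn2, a relative of Sesn1, fell in NIH/3T3 at 5 h (-1.38 ± 0.12, adjusted p = 2.56e-07), and Gdf15, a stress cytokine, fell in CGR8 (-2.40 ± 0.28, adjusted p = 6.27e-06). At 48 h Ptprv, a receptor-type tyrosine phosphatase, was higher in NIH/3T3 (2.40 ± 0.23) and in CGR8 (1.97 ± 0.26), and Ephx1, an epoxide hydrolase, in CGR8 (2.35 ± 0.16, adjusted p = 1.47e-07). The other large changes were those of Slc19a2 in NIH/3T3 at 5 h (-0.91), of Psrc1 (0.91), Tigar (-0.95) and Ndrg1 (-0.91) there at 48 h, and of Trp53i11 in CGR8 at 5 h and 48 h (-1.72 and -1.13), where Gdf15 was still lower at 48 h (-0.94).

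Genes that act on p53 held calls in both directions, in NIH/3T3 at shares near those of all genes at 5 h. Of 20 activators and cofactors tested in NIH/3T3, 5 were higher and 4 lower at 5 h and 8 higher and 7 lower at 48 h. In CGR8, 6 of 21 were higher and 10 lower at 5 h, and 2 higher and 1 lower at 48 h. Rpl5 and Rpl11 encode ribosomal proteins that can bind and inhibit Mdm2. Rpl5 was higher at 5 h in NIH/3T3 (0.55 ± 0.14, adjusted p = 0.00468) and in CGR8 (0.93 ± 0.16, 0.000143), and Rpl11 in CGR8 (1.06 ± 0.17, 0.000101). The kinase gene Hipk2 rose in NIH/3T3 at 48 h (1.42 ± 0.15, adjusted p = 1.53e-06) and fell in CGR8 at 5 h (-0.93 ± 0.12, 1.46e-05) and 48 h (-0.51 ± 0.12, 0.00386). The remaining large log2 fold changes among the activators were those of Kat5 (0.55), Chek2 (-0.83) and Trp53bp2 (-0.65) at 5 h and Prkdc (1.60), Chek1 (-0.61) and Usp10 (-0.57) at 48 h in NIH/3T3, and of Crebbp (-1.0) at 5 h and Topors (0.52) and Trp53bp1 (0.57) at 48 h in CGR8. Of 13 other negative regulators, 4 were higher and 4 lower in NIH/3T3 at 5 h and 5 higher and 4 lower at 48 h, and in CGR8 1 was higher and 5 lower at 5 h and 1 higher and 3 lower at 48 h. The ubiquitin ligase genes Trim24 and Rffl were higher in NIH/3T3 at 5 h (1.05 ± 0.14 and 0.86 ± 0.11), and Huwe1 was lower in CGR8 at 5 h (-0.90 ± 0.24) and higher in NIH/3T3 at 48 h (0.68 ± 0.17). Ube4b (-0.82) and Cop1 (-0.59) fell in NIH/3T3 at 5 h, and Ppp1r13l fell (-1.08) and Rchy1 rose (0.54) in CGR8. At 48 h Ube3a rose in NIH/3T3 (0.77) and Trim28 in CGR8 (0.47), while Kmt5a and Smyd2 were lower in both lines (-0.56 and -0.52 in NIH/3T3, -0.37 and -0.47 in CGR8). Smyd2 in CGR8 at 48 h lost its call without the 4 libraries that stand apart (adjusted p = 0.0511) and without 0 h B (0.0972) or 48 h A (0.0704). Trp53bp1 there lost it without the same 4 libraries (0.0733), with library-total scaling (0.0612) and without 0 h B (0.107), 48 h B (0.0938) or 48 h C (0.137), and Kmt5a lost it with no filter on low counts (0.0674).

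Of 20 cell-cycle genes that p53 lowers through p21 and the DREAM repressor complex, all tested in NIH/3T3, 12 were lower and 8 did not pass there at 5 h, where 27.1% of all genes were lower. At 48 h 13 were lower, 1 was higher and 6 did not pass, where 25.6% of all genes were lower, with medians at 5 h and 48 h of -0.45 and -0.34. In CGR8, 4 were higher and 7 lower at 5 h, and 1 higher and 3 lower at 48 h, with medians of -0.07 and -0.05. Foxm1, a factor for mitotic genes, fell at 5 h in NIH/3T3 (-1.16 ± 0.12, adjusted p = 1.37e-06) and in CGR8 (-1.03 ± 0.13, 1.02e-05). Cdk1, the mitotic kinase, fell in NIH/3T3 at 48 h (-0.70 ± 0.094, adjusted p = 1.44e-05) and was higher in CGR8 at 5 h (0.58 ± 0.10, 0.000239). Plk1 fell in NIH/3T3 at 5 h (-1.17 ± 0.12, adjusted p = 1.79e-06), and E2f1, an activator of S-phase genes, at 48 h (-0.77 ± 0.10, 1.56e-05). In CGR8, Birc5 was higher (0.60) and Mki67 lower (-0.98) at 5 h, and Cdc20 was higher (0.41) and Ccnb2 (-0.70) and Kif23 (-0.54) lower at 48 h. The 1 gene higher in NIH/3T3 at 48 h was Cenpf (0.43). Its call was lost without 0 h A (adjusted p = 0.0582), 0 h C (0.0797) or 48 h B (0.0761). Gtse1, which belongs to the 31 and is also a gene of the G2 phase, rose at 48 h in both lines.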

How the data were processed

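RNA of 30 libraries was sequenced after column purification and stranded mRNA ligation library preparation, per the labels' protocols. Per gene, the authors deposited raw read counts for 57186 Ensembl identifiers, 1 column per library; the submitters' processing notes name STAR, DESeq2 and GRCm39, while the counting tool, its use of strand and the annotation release are not given in the sources used here. Symbols, exon lengths and overlaps came from GENCODE M21 on GRCm38, by identifier without its version (51880 of 57186, 90.7%), and promoter windows from RefSeq on GRCm38.p6.

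The tests used edgeR 4.0.16 under R 4.3.3: filterByExpr (minimum count 10, minimum total 15), TMM factors, and the two-sided quasi-likelihood test with Benjamini-Hochberg adjustment over all genes, called under 0.05, in 1 fit per line (15 libraries) and 1 fit of all 30 for line differences and untreated levels, 15 comparisons in all. CPM divide counts by TMM-scaled totals, so values within a line and in the untreated comparison, scaled over 30 libraries, differ slightly; intervals and the floor of 3 counts cover counting error only. The fit was tested on simulated data. Alternatives were RLE factors, library totals, DESeq2 1.42.0, limma 3.58.1 voom with sample weights, no filter, a mean of at least 5 CPM, only the groups compared, a replicate block, each library left out and, added after seeing the data, 4 or 6 libraries left out. Replicates of a group differed by more than sampling noise (lowest chi-square per degree of freedom 1.75). The 31 genes, the other lists and the naming rule were chosen with earlier results of these data known. The rule took Trp53, Mdm2 and Cdkn1a always, the 3 called genes of largest rise and of largest fall at each time against 0 h (2 in the other comparisons) whose higher group averaged 1 CPM or more, 2 in each direction of each pathway list at 5 h and 48 h, and Cdkn2a; other genes are named to account for all 31, and the roles were assigned after seeing the data.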

Additional observations from a re-analysis of the deposited data

Results flagged for a closer look

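Among the members that the naming rule picks for each line comparison, 9 differed in their change from 0 h between the lines at 1 or more times, by the test of the difference itself (the line by time term in the fit of all 30 libraries, edgeR's quasi-likelihood test, Benjamini-Hochberg adjusted over all genes). Each value is the CGR8 change minus the NIH/3T3 change, in log2 units ± SE, with 3 libraries in each group. At 1 h the difference for Plk2 was -1.09 ± 0.15 (adjusted p = 0.000199), from -0.15 in CGR8 and 0.96 in NIH/3T3. At 2 h the difference for Steap3 was 1.05 ± 0.19 (adjusted p = 0.00131), from 0.67 in CGR8 and -0.32 in NIH/3T3. For Plk2 it was -2.20 ± 0.15 (adjusted p = 9.40e-11), from -0.74 and 1.51. For Plk3 it was -1.47 ± 0.20 (adjusted p = 2.06e-05), from -0.76 and 0.76. For Cdkn1a it was -0.53 ± 0.13 (adjusted p = 0.0226), from -0.44 and 0.15.

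At 5 h the difference for Steap3 was 1.94 ± 0.19 (adjusted p = 8.77e-08), from 1.09 in CGR8 and -0.76 in NIH/3T3. For Trp53inp1 it was 1.10 ± 0.30 (adjusted p = 0.0126), from -0.34 and -1.36. For Plk2 it was -0.90 ± 0.15 (adjusted p = 0.000125), from -0.06 and 0.93. For Trp53 it was 0.54 ± 0.15 (adjusted p = 0.0174), from -0.33 and -0.78. For Mdm2 it was 1.05 ± 0.11 (adjusted p = 3.59e-07), from 0.46 and -0.51. For Cdkn1a it was 0.97 ± 0.13 (adjusted p = 7.64e-06), from -0.03 and -0.91.

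At 48 h the difference for Plk2 was 1.23 ± 0.15 (adjusted p = 7.09e-07), from 1.14 in CGR8 and -0.11 in NIH/3T3. For Eda2r it was 1.03 ± 0.20 (adjusted p = 0.000328), from 1.64 and 0.59. For Sesn1 it was -1.69 ± 0.15 (adjusted p = 5.06e-09), from -0.75 and 0.93. For Trp53inp1 it was -1.34 ± 0.28 (adjusted p = 0.000688), from 0.60 and 1.92. For Trp53 it was 0.57 ± 0.15 (adjusted p = 0.00653), from 0.55 and -0.04. For Mdm2 it was 0.52 ± 0.11 (adjusted p = 0.00124), from 0.65 and 0.11. Plk2 is the 1 gene of the 9 called at all 4 times, with a negative difference at 1 h, 2 h and 5 h and a positive one at 48 h. Trp53inp1 has differences of opposite sign at 5 h and 48 h, and Cdkn1a at 2 h and 5 h. The Cdkn1a difference at 2 h was lost in 7 of 22 alternatives (adjusted p up to 0.201), that of Trp53inp1 at 5 h with library totals (0.0726) and without CGR8 5 h B (0.0626), that of Trp53 at 5 h in 7 alternatives (up to 0.219), and that of Steap3 at 2 h with only the groups compared (0.0538). The cause of these differences was not tested.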

How the results depend on the processing

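Of the counts of called members, those at 5 h and 48 h in each line, at 48 h against 5 h, between the lines at 48 h and in untreated cells stayed within 1.5 times under every alternative run. Percentages in brackets are the shares of all genes called in the same fit. At 1 h in NIH/3T3 the 1 called member (0.732%) became 2 with DESeq2 (1.9%) or no filter (0.89%) and 7 with voom (20.7%). It became 6 without the 4 or the 6 libraries that stand apart (14.7%, both chosen after seeing the data). With each library left out it became 1 to 3 (2 without 0 h B, 1.35%, and 3 without 1 h C, 3.33%). At 1 h in CGR8 the count of 0 (0.27%) became 4 with voom (6.55%). At 2 h the 18 in NIH/3T3 (35%) became 9 to 18 with each library left out. The count was 9 without 0 h A (21.6%) or 2 h C (21.4%) and 10 without 0 h C (25.1%) or 2 h B (25.4%). The 11 in CGR8 (19.9%) became 5 with only the groups compared (6.4%), 18 without the 6 libraries (32%) and 17 with voom (28.9%). With each library left out they became 6 to 16 (6 without 2 h C, 6.53%, and 16 without 0 h B, 18%). The line difference at 1 h (1 member, 0.16%) became 2 without the 4 (0.273%) or 6 (0.398%) libraries and 3 with voom (1.48%). With each library left out it became 1 to 2 (2 without NIH/3T3 1 h C, 0.206%). The line difference at 2 h (6, 2.02%) became 2 with only the groups compared (1.1%) and 10 with voom (4.04%) or without the 6 libraries (4.79%). That at 5 h (14, 13.3%) became 9 to 14 with each library left out (9 without CGR8 5 h A, 9.39%). The cause of these shifts was not tested. Of 161 values for genes named by the rule, 142 were called. Among these values 16 lost the call under at least 1 alternative, 8 gained one and 0 changed sign. The rule favours large changes, so the calls of all members were also followed through every alternative. In NIH/3T3 they held for 19 genes from 21 (5 h), 16 from 19 (48 h) and 8 from 18 (2 h). In CGR8 they held for 11 genes from 16 (5 h), 15 from 22 (48 h) and 5 from 11 (2 h). Line differences held for 8 genes from 14 (5 h), 9 from 12 (48 h) and 2 from 6 (2 h).

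With the replicate block the count was 20 at 5 h and 27 at 48 h against 5 h in NIH/3T3, 10 at 2 h and 21 at 48 h in CGR8, 13 for the line difference at 5 h, and as before elsewhere. In these comparisons the block fit called 51.4%, 65.6%, 18.4%, 27.6% and 13.2% of all genes, in that order. The block ended the calls of Apaf1 in CGR8 at 2 h and 48 h (adjusted p = 0.0541 and 0.0527), of Ercc5 at 2 h (0.0547), Tap1 at 5 h (0.0553) and Ccng1 at 48 h (0.0507) in NIH/3T3 and of Ccng1 for the line difference at 5 h (0.0570). It added, in NIH/3T3, Steap3 at 2 h and Rrm2b at 48 h against 0 h and against 5 h. Libraries of the same letter did not deviate together (mean correlation 0.032 in NIH/3T3 and 0.033 in CGR8, from -0.33 to 0.39 and from -0.70 to 0.58), and 6 and 7 of 15 libraries correlated best with their own letter, so the letters were not taken as pairs. Library-total scaling moved the median of all genes by -0.10 at 5 h in CGR8 and -0.19 for the line difference at 5 h. Low counts limit Perp in NIH/3T3 and Fas and Tap1 in CGR8.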
